A study of Mus musculus with 16 samples.

Results

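The 9 genes described here belong to B cell development. They are Cd79a and Cd79b of the B cell receptor, the surface protein gene Ms4a1, the factor genes Ebf1 and Pax5, the surrogate light chain group Vpreb1, Vpreb3 and Igll1, and the recombinase gene Rag1. They were chosen by name, and all 9 were found among the 50686 gene IDs of the deposited tables. The RNA came from haematopoietic stem cells (HSCs), the self-renewing cells of the marrow, in C57BL/6J mice whose age is not given in the sources used here. All mice received intraperitoneal injections of 100 µL every 48 h over 85 days. The vehicle group received 20% DMSO and 40% PEG 400 in PBS without drug. The palbociclib group received this inhibitor of the cell cycle kinases CDK4 and CDK6 at 30.4 mg/kg, and the rapamycin group received rapamycin at 6.4 mg/kg, an inhibitor of the growth kinase mTOR. The last group, called combination here, received both drugs at these doses. There were 16 libraries, 4 per group. For each, 10000 G0/1 cells were collected by flow cytometry on CD150, CD48, Sca-1 and CD117, from marrow first depleted of lineage-positive cells. Whether each library came from its own mouse is not stated, so p-values measure the spread between libraries, which may be partly technical.

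B cells arise from HSCs through lymphoid progenitors, pro-B cells and pre-B cells in the marrow. EBF1 and PAX5 commit progenitors to the lineage, and RAG1 cuts the immunoglobulin genes for recombination. Before a light chain gene has been joined, the products of Vpreb1 and Igll1 take its place beside the heavy chain, and CD79A and CD79B carry the signal of this pre-B cell receptor and later of the mature receptor. Vpreb1 and Igll1 are switched off in mature B cells, whereas Cd79a, Cd79b and Ms4a1 stay on. HSCs lie upstream of all of these steps, and lineage depletion is meant to remove cells that have taken them.

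Upstream stretches of 3 members are shown, because Vpreb3 followed Cd79a across the 16 libraries more closely (r = 0.84 in log2 CPM) than Igll1 did (r = 0.327). Without vehicle replicate 4 these values were nearer to each other, at 0.734 and 0.588. They were taken from the RefSeq promoter table of build GRCm38.p6, which matched 7 of the 9 members. Each runs 5′ to 3′ on the strand of the gene, over up to 250 bases before the RefSeq start and only where no exon of the GENCODE annotation lies. Capitals mark an EBF core (CCCNNGGG), an E-box (CAGGTG or, on the other strand, CACCTG) or an octamer (ATTTGCAT or ATGCAAAT), all searched on both strands. The octamer was added to the search after the sequences had been read.
Vpreb3 (chr10:75948050-75948299, plus strand): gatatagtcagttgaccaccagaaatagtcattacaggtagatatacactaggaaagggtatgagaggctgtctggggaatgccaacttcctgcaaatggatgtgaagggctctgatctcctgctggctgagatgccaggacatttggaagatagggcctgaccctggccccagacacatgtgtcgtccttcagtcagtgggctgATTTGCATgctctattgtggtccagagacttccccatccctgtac
Cd79a (chr7:24897247-24897380, plus strand): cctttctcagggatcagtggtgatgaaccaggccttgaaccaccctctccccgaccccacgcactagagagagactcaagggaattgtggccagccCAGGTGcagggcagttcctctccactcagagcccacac
Igll1 (chr16:16863986-16864235, minus strand): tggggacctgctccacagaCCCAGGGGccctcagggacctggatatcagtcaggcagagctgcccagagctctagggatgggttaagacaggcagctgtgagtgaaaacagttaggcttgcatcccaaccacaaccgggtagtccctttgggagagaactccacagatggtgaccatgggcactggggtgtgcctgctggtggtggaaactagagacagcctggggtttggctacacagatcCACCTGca

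The Vpreb3 stretch held 1 octamer, which 1.6% of all 32851 promoter windows of 250 bases hold. It lies within the GENCODE span of the gene, outside its exons. The 134 bases of Cd79a, which end 116 bases before the RefSeq start, held 1 E-box, as 9.75% of windows of that length and place do. The Igll1 stretch held 1 EBF core and 1 E-box, which 11.8% and 17.2% of the 250-base windows hold. No marked matches overlapped, and a match is a description of the letters and not of a bound site.

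Before the levels are given, 2 libraries need naming. Vehicle replicate 4 had the highest level of Cd79a, Cd79b, Ms4a1, Ebf1, Pax5 and Vpreb3 of all 16 libraries, and palbociclib replicate 1 came next for all of these but Ebf1, for which rapamycin 2 lay between them. The 9 genes together came to 2208 TPM (a transcript abundance corrected for gene length) in vehicle 4, to 347 TPM in palbociclib 1 and to between 44.5 and 147 TPM in the others. The fold changes of the members against vehicle are therefore given with and without vehicle 4, and so are the counts and medians of gene lists. In RNA from many cells, fewer cells of a type and less RNA per cell cannot be told apart.

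Cd79a encodes the alpha chain of the signalling pair of the B cell receptor (ENSMUSG00000003379, chr7:24897381-24902197). In CPM (counts relative to the library total, scaled by TMM factors), it stood at 44.9, 15.2, 68.2 and 2172 in vehicle replicates 1 to 4, and at 202, 8.38, 18.6 and 11.5 in palbociclib replicates. In rapamycin libraries its levels were 8.79, 68.6, 30.7 and 42.0 CPM, and in combination libraries 10.8, 3.95, 25.6 and 19.8 CPM. All 4 groups overlapped. Vehicle 4 alone carried 78.9% of the CPM summed over the 16 libraries, from 19717 of 26760 Cd79a counts. Outside vehicle 4 and palbociclib 1 the gene still ranged 17.4-fold, from 3.95 CPM in combination 2 to 68.6 CPM in rapamycin 2.

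Cd79b encodes the beta chain, the partner of CD79A (ENSMUSG00000040592, chr11:106311341-106314762), and it behaved differently. It stood at 46.2, 34.6, 46.4 and 467 CPM in vehicle, 102, 44.2, 38.0 and 36.5 CPM in palbociclib, 33.6, 37.5, 50.4 and 47.1 CPM in rapamycin and 28.4, 31.8, 31.5 and 28.7 CPM in combination libraries. Outside vehicle 4 and palbociclib 1 its levels spanned 1.77-fold, against the 17.4-fold of Cd79a. On the TPM scale, which allows genes to be set side by side, the Cd79a to Cd79b ratio ran from 0.103 in combination 2 to 3.82 in vehicle 4. It was above 1 in 4 libraries, vehicle 3, vehicle 4, palbociclib 1 and rapamycin 2. Combination 2 had 467 Cd79b counts beside 58 of Cd79a and 0 of Ms4a1, so Cd79b RNA was present where the other receptor and surface genes were low. The combination libraries lay below all 12 others in TMM-scaled CPM. The order was not complete on other scales: without TMM factors 11 of 12 others lay above all combination libraries, and in TPM vehicle 2, at 33.0, lay below combination 2, at 36.2.

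Ms4a1 encodes CD20, a membrane protein of B cells from the pre-B stage on (ENSMUSG00000024673, chr19:11249675-11266241). Its levels were 2.58, 3.55, 19.6 and 343 CPM in vehicle and 29.0, 2.12, 0.848 and 3.20 CPM in palbociclib libraries. In rapamycin libraries they were 2.35, 15.2, 5.35 and 12.1 CPM, and in combination libraries 1.42, 0, 9.46 and 2.36 CPM. Vehicle 4 stood 11.8-fold above palbociclib 1, the next library, and held 75.9% of the summed CPM. The 0 in combination 2 allows up to 3 counts of 14163950, or 0.212 CPM, and such limits cover counting error only.

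The factor genes Ebf1 and Pax5 were lower. Ebf1 (ENSMUSG00000057098, chr11:44617317-45008091), whose product opens B cell genes early in the lineage, stood at 1.72, 1.47, 5.83 and 72.7 CPM in vehicle and 7.21, 1.15, 0.742 and 0.291 CPM in palbociclib libraries. It stood at 0.671, 8.33, 4.31 and 0.948 CPM in rapamycin and 0.0791, 0.545, 1.54 and 0.727 CPM in combination libraries, where it rested on 1 to 15 counts. Rapamycin 2 was the next library below vehicle 4 and palbociclib 1 followed. Pax5 (ENSMUSG00000014030, chr4:44524757-44710487), which holds B cells to their fate, had 189 counts in vehicle 4, 48 in palbociclib 1, at most 3 in any other library and 0 in 10 of the 16. These are 20.8 and 4.27 CPM in the first 2. It did not pass the filter on low counts, and no fold change is given for it. A count of 0 allows up to 3 counts, which is 0.196 to 0.296 CPM at the depth of these libraries.

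The surrogate light chain genes did not share 1 pattern. Vpreb3 encodes a VpreB-like protein that binds immunoglobulin chains inside the cell and, unlike Vpreb1, is also expressed in later B cells (ENSMUSG00000000903, chr10:75943057-75949657). It stood at 4.05, 4.76, 10.0 and 76.0 CPM in vehicle, 22.1, 3.44, 1.59 and 1.07 CPM in palbociclib, 3.36, 5.28, 8.78 and 2.92 CPM in rapamycin and 0.712, 0.204, 0.617 and 0.636 CPM in combination libraries. All 4 combination libraries lay below all 12 others, in CPM with or without TMM factors and in TPM, where they reached at most 1.63 against at least 2.32. They rested on 9, 3, 6 and 7 counts, against 11 to 690 elsewhere.

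Vpreb1, which encodes the variable-like part of the surrogate light chain (ENSMUSG00000059305, chr16:16868403-16870843), was at 5.08, 2.43, 1.3 and 0.771 CPM in vehicle and 13.9, 0.529, 3.07 and 3.30 CPM in palbociclib libraries. In rapamycin libraries it was at 2.28, 1.26, 5.27 and 3.48 CPM, and in combination libraries at 0.712, 1.97, 0.411 and 1.64 CPM. Palbociclib 1 was highest here too, but vehicle 4, the library richest in Cd79a, ranked 13th of 16 with 7 counts and held 1.63% of the summed CPM. Top3b overlaps Vpreb1 on the opposite strand and had 20092 counts against 560 of Vpreb1, and whether the counting used strand is not given in the sources used here. Vpreb2, a near-identical copy, was not tested, and estimated counts may divide reads between them.

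Igll1 encodes lambda 5, the constant-like part (ENSMUSG00000075370, chr16:16860671-16863985), and lies 4417 bases from Vpreb1. Its levels were 0.344, 9.79, 5.96 and 0.881 CPM in vehicle and 7.75, 1.41, 1.70 and 0.678 CPM in palbociclib libraries. They were 0.604, 0.818, 5.11 and 4.35 CPM in rapamycin and 0, 0, 1.03 and 0.909 CPM in combination libraries. Vehicle 2 was highest, and vehicle 4 ranked 10th with 8 counts and 2.13% of the summed CPM. Rag1 (ENSMUSG00000061311, chr2:101638282-101649501) had 13 counts in all 16 libraries together and 0 in 12 of them, all 4 combination libraries included. Its overlap with B230118H07Rik on the same strand, at 4740 counts, leaves even these uncertain.

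**Figure D1:**
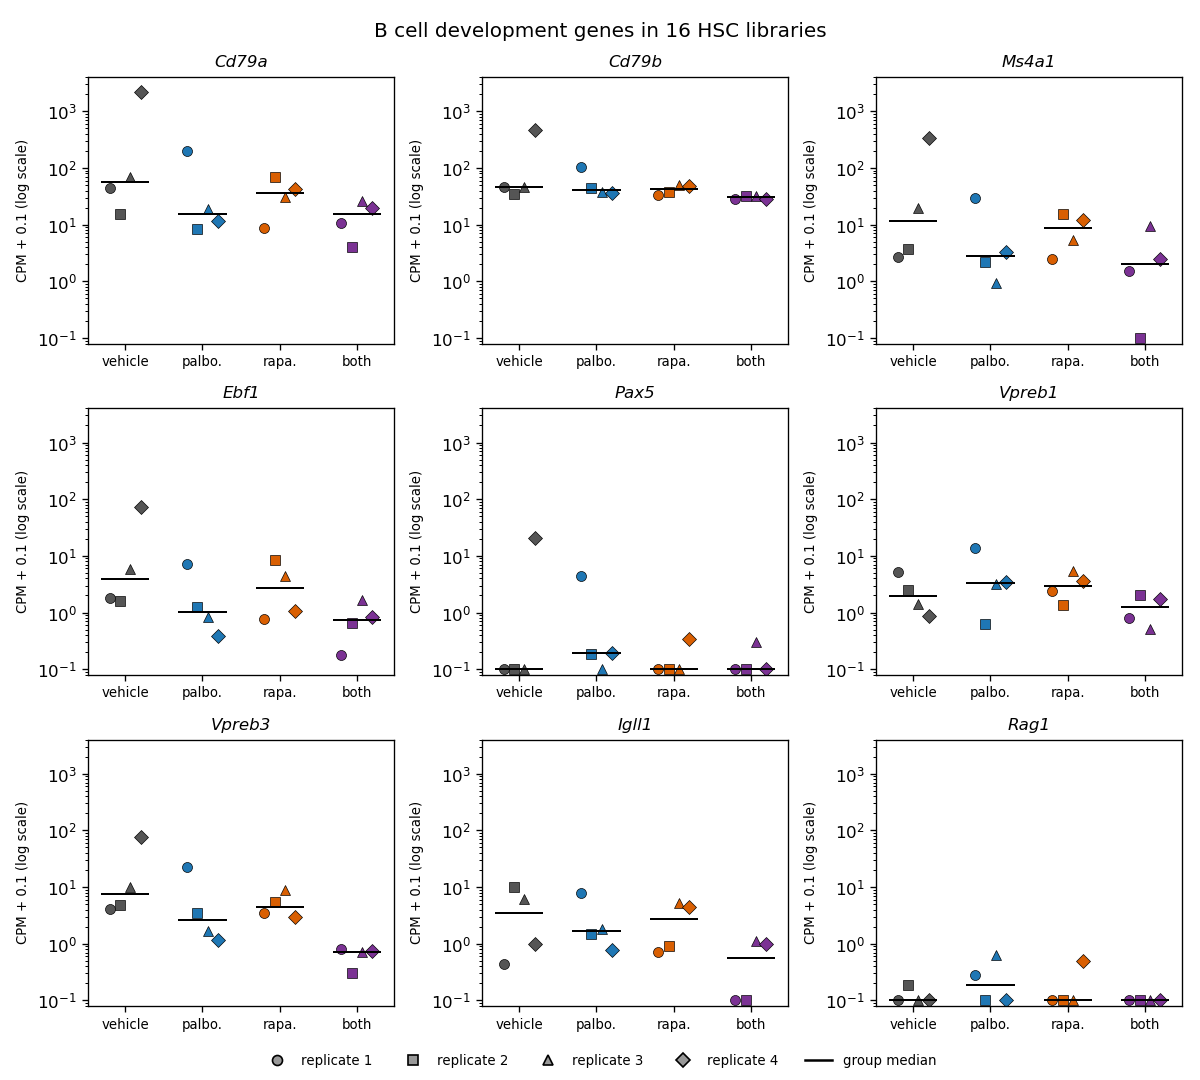
Level of each of the 9 genes in the 16 libraries, as TMM-scaled CPM plus 0.1 on a log axis, by group (palbo. is palbociclib, rapa. rapamycin, both the combination), with 1 point per library, the replicate number as its shape and a bar at the group median. Vehicle replicate 4 stands highest for Cd79a, Cd79b, Ms4a1, Ebf1, Pax5 and Vpreb3 but not for Vpreb1 and Igll1, the combination libraries of Vpreb3 lie below all others, and points at 0.1 had 0 counts.

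Per length and by the median over libraries, Cd79b was the most abundant at 40.0 TPM (range 29.5 to 401), followed by Cd79a at 18.3 TPM (3.72 to 1533) and Vpreb3 at 8.13 TPM (0.47 to 131). Vpreb1 had a median of 3.87 TPM, Igll1 of 1.51, Ms4a1 of 1.33 and Ebf1 of 0.51, and Pax5 and Rag1 had medians of 0. The ranges of all neighbours in this order overlapped. The 7 genes that passed the filter varied between libraries more than the median gene. Their biological coefficient of variation, the spread between libraries beyond counting error, was 61.7% for Cd79b and between 80.5% and 129% for the others, against a median of 39.9% over all genes tested.

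The genes fell into a tight and a loose set when compared across the 16 libraries. Of 21 pairs among the 7 genes, the 10 pairs within Cd79a, Cd79b, Ms4a1, Ebf1 and Vpreb3 all correlated in log2 CPM, with Pearson r between 0.782 and 0.92 and Spearman rho between 0.632 and 0.871 (Benjamini-Hochberg adjusted permutation p of r between 0.000157 and 0.00113 over the 21 pairs). Leaving out the 2 libraries farthest from the median gave r between 0.425 and 0.829 for these pairs. Cd79a and Ms4a1 were the closest pair (r = 0.92, permutation p = 1e-05, the smallest that 100000 resamples can give, rho = 0.871, permutation p = 4e-05, and r = 0.829 without the 2 farthest). For Cd79a and Cd79b r was 0.892 (permutation p = 0.00013) and rho 0.671 (permutation p = 0.00545), and r was 0.524 without the 2 farthest.

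The 11 pairs with Vpreb1 or Igll1 had r between -0.045 and 0.548, and 0 of them passed (adjusted permutation p between 0.0523 and 0.937). Vpreb1 and Igll1, whose products form 1 complex, had r = 0.393 with each other (permutation p = 0.132, adjusted p = 0.197) and rho = 0.287 (permutation p = 0.279). For Cd79a and Vpreb1 r was 0.0854 (permutation p = 0.751) and rho 0.206 (permutation p = 0.443). The gap between these sets depended on vehicle 4. Without it, r ran from 0.569 to 0.856 in the first set of pairs and from 0.182 to 0.744 in the second, so that the ranges overlapped.

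**Figure D2:**
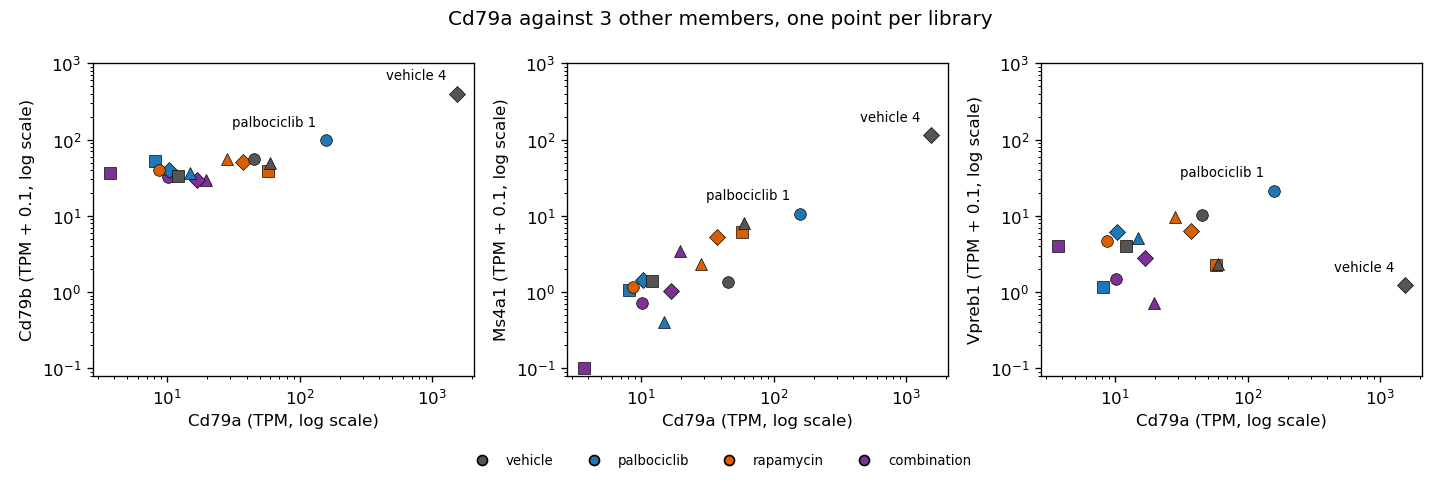
Cd79b, Ms4a1 and Vpreb1 (TPM plus 0.1, log axes) against Cd79a (TPM, log axis), with 1 point per library, coloured by group and shaped by replicate number as in the plot of all members. Cd79b stays between 29.5 and 56.1 TPM in all libraries but the 2 named ones, Ms4a1 follows Cd79a, and Vpreb1 is at 1.13 TPM in vehicle 4, where Cd79a is at 1533 TPM.

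Palbociclib alone was compared with vehicle first. By edgeR's quasi-likelihood test with Benjamini-Hochberg adjustment over all 15308 genes tested, 0 of 7 members were called at an adjusted p of 0.05, as were 0.00% of all genes. Of the 7, 6 had negative log2 fold changes, beside 52.2% of all genes, and 4 had an unadjusted p under 0.05 in the lower direction, beside 5.15% of all genes. These were Cd79a, at 60.2 ± 94.8 CPM in palbociclib and 575 ± 1065 CPM in vehicle libraries (SD, n = 4 each), Cd79b, Ms4a1 and Ebf1. The log2 fold change of Cd79a was -3.25 ± 1.37 (SE, edgeR adjusted p = 0.475). Vpreb1 had the positive value, 1.11 ± 0.85 (edgeR adjusted p = 0.724). The median over the 7 was -1.74, beside -0.03 for all genes. Limma-voom also called 0 members, and DESeq2 called 0 of the 5 to which it gave an adjusted p, which leaves out Cd79a and Cd79b. The 3 comparisons with vehicle share the vehicle libraries, so their values are not independent of each other.

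Without vehicle 4, 2 of 7 members had negative values, beside 49.9% of all genes, and 0 had an unadjusted p under 0.05 in the lower direction, beside 4.66%. The median over the members was then 0.17. Cd79a came to 0.49, Cd79b to 0.38, Ms4a1 to 0.04 and Vpreb3 to 0.17, so that the sign of these 4 genes turned. Ebf1 came to -0.36 and Igll1 to -0.89. Without palbociclib 1 the shift was the other way, with Cd79a at -5.48 and Vpreb1 at -0.06. With both left out, an alternative chosen after seeing the data, all 7 members were negative. Cd79a stood at -1.75 and Vpreb3 at -1.63 (edgeR adjusted p = 0.463 and 0.471). Ms4a1 stood at -2.06, Ebf1 at -2.05, Igll1 at -2.08, Vpreb1 at -0.36 and Cd79b at -0.11. The signs therefore depended on both libraries.

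After rapamycin alone, 0 of 7 members were called, beside 0.00653% of all genes. Again 6 had negative log2 fold changes (51.0% of all genes), and Cd79a, Cd79b, Ms4a1 and Vpreb3 had an unadjusted p under 0.05 in the lower direction, beside 4.34% of all genes. Vpreb3 averaged 5.08 ± 2.67 CPM against 23.7 ± 35.0 in vehicle libraries (SD, n = 4), a log2 fold change of -2.22 ± 0.99 (SE, edgeR adjusted p = 0.618), and Cd79a reached -3.94 ± 1.42 (edgeR adjusted p = 0.533). The median over the members was -2.22, beside -0.01 for all genes. Limma-voom called 0 members and DESeq2 0 of the 5 with an adjusted p, again without one for Cd79a and Cd79b. These values also rested on vehicle 4. Without it 4 of 7 members had negative values, beside 49.0% of all genes, 0 had an unadjusted p under 0.05 in the lower direction, beside 3.30%, and the median was -0.01. Cd79a was at -0.19, Cd79b at -0.01, Ms4a1 at 0.02, Ebf1 at 0.24 and Vpreb3 at -0.31.

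By group means the 7 tested members were lowest in the combination libraries. By medians this did not hold for Cd79a, at 15.3 CPM in combination and 15.1 CPM in palbociclib libraries. All 7 members had negative log2 fold changes against vehicle (51.6% of all genes), and all but Vpreb1 had an unadjusted p under 0.05 in the lower direction, beside 5.53% of all genes. None was called after adjustment (0 of 7, beside 0.00% of all genes). Vpreb3 averaged 0.542 ± 0.229 CPM against 23.7 ± 35.0 (SD, n = 4), and its log2 fold change was -5.44 ± 1.18 (SE, unadjusted p = 0.000281 and adjusted p = 0.218 by edgeR). Cd79a averaged 15.0 ± 9.59 CPM and had a log2 fold change of -5.26 ± 1.51 (edgeR adjusted p = 0.259), Ebf1 of -4.82 ± 1.43 (adjusted p = 0.259) and Ms4a1 of -4.82 ± 1.62 (adjusted p = 0.308). Cd79b averaged 30.1 ± 1.77 CPM against 149 ± 213, and Igll1 0.484 ± 0.561 against 4.24 ± 4.48. The median over the members was -4.82, beside -0.02 for all genes. Cd79b and Vpreb3 were lower without overlap of the groups in TMM-scaled CPM, 2 of 7 members beside 2.18% of all genes.

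When vehicle 4 was left out, all 7 members still had negative values, beside 50.5% of all genes, and 2 had an unadjusted p under 0.05 in the lower direction, beside 5.12%, with a median of -1.51. Vpreb3 then had a log2 fold change of -3.52 (edgeR adjusted p = 0.211), Igll1 of -3.48 (adjusted p = 0.351), Ebf1 of -2.06, Cd79a of -1.51, Ms4a1 of -1.38, Vpreb1 of -1.29 and Cd79b of -0.49. Igll1 and Vpreb1, which were low in vehicle 4, had values of -3.14 and -1.0 with it and were the 2 members whose values did not shrink. Across all alternatives the adjusted p of Vpreb3 ranged from 2.59e-05 to 0.619. The lowest came from DESeq2, which called 2 members, Vpreb3 (log2 fold change -5.48, adjusted p = 2.59e-05) and Ebf1 (-4.85, adjusted p = 0.00622), and 184 of all genes. DESeq2 gave no adjusted p for Cd79a and Cd79b. Limma-voom called 0 members and so did limma on the log2 TPM values.

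**Figure D3:**
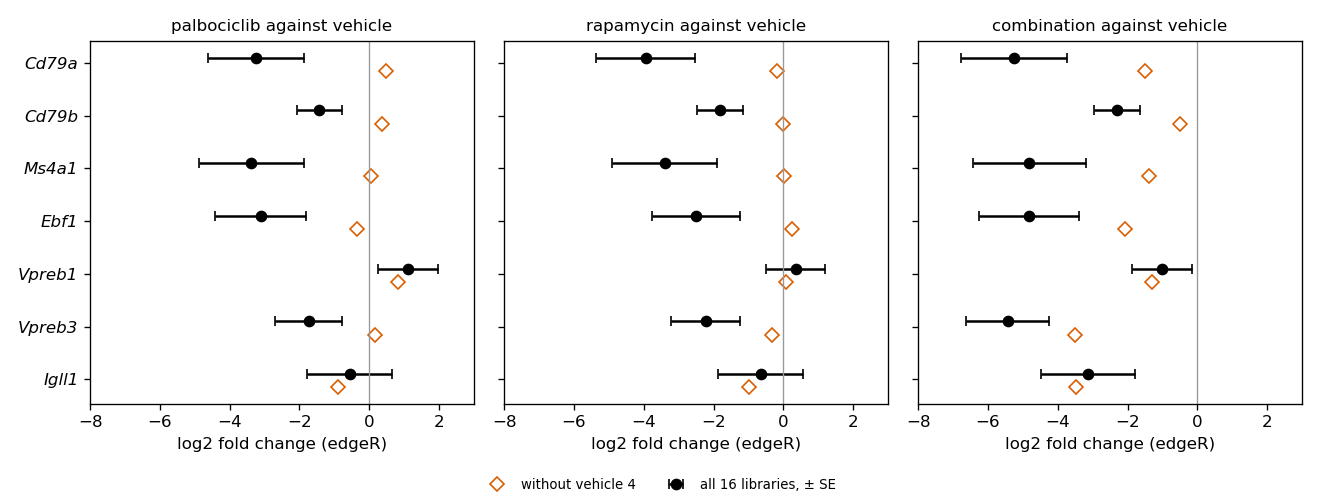
Log2 fold change against vehicle of the 7 genes that passed the filter, for palbociclib, rapamycin and the combination, with filled circles and bars for the edgeR value ± SE over all 16 libraries and open diamonds for the value without vehicle replicate 4. Without that library most values for the single drugs lie near 0 (Cd79a at 0.49 and -0.19), while all 7 for the combination stay negative, with Vpreb3 at -3.52. With palbociclib 1 left out as well (not drawn), all 7 palbociclib values were also negative. Cd79a was then at -1.75 for palbociclib and -1.53 for the combination, and Vpreb3 at -1.63 and -3.54.

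Set against each drug alone, the combination had lower fitted levels of all 7 members, beside 51.0% of all genes below 0 against palbociclib and 51.9% against rapamycin. The comparisons share the combination libraries and are not independent of each other. Against palbociclib 0 of 7 were called (0.00% of all genes), and Vpreb3 (-3.69 ± 1.11, unadjusted p = 0.00418 and adjusted p = 1 by edgeR) and Vpreb1 (-2.12 ± 0.88, adjusted p = 1) had an unadjusted p under 0.05 in the lower direction, beside 1.18% of all genes. DESeq2 called Vpreb3 here (-3.72, adjusted p = 0.0497). Cd79a went from -2.01 to 0.22 and Ms4a1 from -1.44 to 0.65 when palbociclib 1 was left out, and Vpreb3 from -3.69 to -1.91.

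Against rapamycin 0 of 7 were called (0.0327% of all genes). Vpreb3 was the 1 member with an unadjusted p under 0.05 in the lower direction, beside 4.35% of all genes, with a log2 fold change of -3.22 ± 1.09 (unadjusted p = 0.00942 and adjusted p = 0.328 by edgeR). Neither group of this comparison holds vehicle 4 or palbociclib 1, and leaving out any 1 library kept Vpreb3 between -3.41 and -2.82. The spread behind its p was still estimated from all 16 libraries, these included. The edgeR adjusted p of Vpreb3 was 0.249 without vehicle 4 and 0.105 without both. Its DESeq2 adjusted p over all libraries was 0.0502. DESeq2 called 0 of the 5 members with an adjusted p, and limma-voom 0 of 7. Igll1 stood at -2.50 ± 1.32 and Ebf1 at -2.31 ± 1.31 (adjusted p = 0.575 and 0.617), and Cd79b at -0.49 ± 0.65 (adjusted p = 0.878). Cd79b and Vpreb3 again did not overlap, beside 1.61% of all genes lower without overlap against palbociclib and 3.87% against rapamycin.

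Averaged over both palbociclib levels, the effect of rapamycin was negative in all 7 members (50.9% of all genes), with 0 of 7 called (0.00% of all genes) and 5 with an unadjusted p under 0.05 in the lower direction, beside 2.67% of all genes. Vpreb3 was at -2.96 ± 0.74 (unadjusted p = 0.00106 and adjusted p = 0.477 by edgeR). It was at -2.0 without vehicle 4 and at -1.1 without palbociclib 1 as well. DESeq2 called it at -2.98 (adjusted p = 0.00394) over all 16 libraries. Vehicle 4 and palbociclib 1 both lie on the side without rapamycin. Besides Vpreb3, the members with an unadjusted p under 0.05 were Cd79a, Cd79b, Ms4a1 and Ebf1. Without vehicle 4 they were at -1.1, -0.44, -0.7 and -0.73, and without both libraries at 0.01, -0.2, 0.34 and 0.1. The interaction asks whether the combination differs from the sum of the single drug effects on the log scale. No member was called for it (0 of 7, beside 0.00% of all genes) and 0 had an unadjusted p under 0.05, beside 5.67% of all genes in either direction. Limma-voom called 0 members, and DESeq2 gave an adjusted p to 1 of the 7, Ms4a1 (0.931). Vpreb1 came nearest at -2.48 ± 1.21 (adjusted p = 0.874), and Cd79a turned from 1.93 to -1.82 without vehicle 4.

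Other genes of the lineage were read from lists chosen with earlier results of these data known. Of 17 early lymphoid genes, among them the progenitor receptor gene Flt3 and the factor genes Spi1 and Tcf3, 14 were tested and 0 were called in any of the 7 comparisons. Their median log2 fold change for the combination against vehicle was -0.17, with 9 lower and 5 higher, beside 51.6% of all genes lower. Of the 14, 3 lower and 0 higher had an unadjusted p under 0.05 by edgeR, beside 5.53% of all genes in the lower direction. Without vehicle 4 the median was -0.15, with 1 lower and 1 higher at that p, beside 5.12% of all genes in the lower direction. Flt3 averaged 112 ± 35.5 CPM in combination and 55.8 ± 34.3 CPM in vehicle libraries (SD, n = 4). All 18 genes of B cell receptor signalling were tested and 0 called, with a median of 0.02, 9 lower and 9 higher. At an unadjusted p under 0.05, 6 were lower and 2 higher, beside 5.53% of all genes in the lower direction. Without vehicle 4 this turned to 0 lower and 6 higher at that p, beside 5.12% of all genes in the lower direction. The share of all genes in the higher direction is not given here, so the 6 cannot be set against it. The median was then 0.27, with 6 of 18 below 0, beside 50.5% of all genes. The most abundant of them, Ptpn6, Plcg2, Vav1 and Dapp1, also act in other blood cells, and Plcg2 averaged 388 ± 25.9 against 261 ± 136 CPM.

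The mature B cell list had 15 of 15 genes lower in the combination than in vehicle, beside 51.6% of all genes, with a median of -2.31. Of the 15, 0 were called and 7 had an unadjusted p under 0.05, beside 5.53% of all genes in the lower direction. Vehicle 4 set this direction. Without it 6 of 15 were lower, beside 50.5% of all genes, and 9 higher, with a median of 0.26. At that p 0 were then lower, beside 5.12% of all genes, and 1 higher. The list summed to 10044 TPM in vehicle 4, to 249 to 2351 TPM in the other vehicle libraries and to 199 to 3989 TPM in combination libraries. After palbociclib and after rapamycin 15 of 15 genes were lower than in vehicle, beside 52.2% and 51.0% of all genes, with medians of -2.25 and -3.61. Without vehicle 4 these were 2 of 15 and 7 of 15, beside 49.9% and 49.0% of all genes, with medians of 0.79 and 0.14. In the plasma cell list 8 of 9 tested genes were lower in the combination, 9 of 9 after palbociclib and 9 of 9 after rapamycin. The shares of all genes were 51.6%, 52.2% and 51.0%, and the list medians were -1.76, -0.95 and -2.21, with 0 called. Without vehicle 4 the counts were 7, 5 and 9 of 9, beside 50.5%, 49.9% and 49.0% of all genes. The medians were then -0.84, -0.01 and -1.48. Ighm, the heavy chain gene of IgM, was highest in vehicle 4 (10987 CPM), as Cd79a was. In other libraries the genes could differ in order, with Ighm at 6766 CPM in palbociclib 3, where Cd79a was at 18.6 CPM, and at 304 CPM in rapamycin 2, where Cd79a was at 68.6 CPM. Ighd, the IgD heavy chain gene of mature naive B cells, stood at 1502 CPM in vehicle 4, at 137 CPM in palbociclib 1 and at most at 31.1 CPM elsewhere. Ighm, Igkc and other immunoglobulin genes share sequence, so their estimated counts are uncertain as single genes.

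By Pearson r of log2 CPM with the mean profile of the 7 members over 16 libraries, the most similar other genes included Siglecg (0.942), Cd3d (0.917), H2-DMb2 (0.902), Cd74 (0.899), Cd83 (0.884), Cd3g (0.881) and Ly6d (0.879). Each member is part of this mean, so its r is not comparable with that of the other genes. Among the members themselves r with this mean was 0.948 for Vpreb3, 0.608 for Igll1 and 0.252 for Vpreb1, and without vehicle 4 it was 0.917, 0.831 and 0.55. Without vehicle 4 the 8 most similar were St3gal5 (0.931), Siglecg (0.913), Nfkbia (0.896), Cd74 (0.892), Cxcl5 (0.887), Cenpa (0.878), H2-DMb2 (0.878) and Cd3d (0.869). These genes were measured in the same libraries at the same depths, so likeness is a description.

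Markers of other cells moved with some of these values. T and NK cell markers were lower in the combination than in vehicle in 13 of 13 tested genes of 14, with 0 called, 8 at an unadjusted p under 0.05, beside 5.53% of all genes, and a median of -3.54. Without vehicle 4 they were still lower in 13 of 13, with 2 at that p, beside 5.12% of all genes, and a median of -1.31. Their summed level was 255 to 1178 TPM in vehicle, 299.7 to 1013 in palbociclib, 315 to 838 in rapamycin and 275 to 807 in combination libraries. Cd3d, of the T cell receptor complex, was at 30.5 CPM in vehicle 4, 16.3 CPM in palbociclib 1 and at most 5.88 CPM elsewhere, and Cd3g was at 0 in palbociclib 2, palbociclib 4 and combination 2. Lck and Cd2 were also highest in vehicle 4, at 119.7 and 72.9 CPM. Nkg7 and Klrb1c were not, at 173 and 4.52 CPM there against 604 and 32.6 CPM in vehicle 3. Nkg7 made up 1095 of the 1178 TPM of the list in vehicle 3. Between 0 and 2 of the 14 genes were at 0 in vehicle libraries and between 1 and 5 in combination libraries. The plasma cell list summed to 49923 TPM in vehicle 4, 3105 to 16439 in the other vehicle libraries, 749 to 12037 in palbociclib, 255 to 1995 in rapamycin and 289.8 to 7962 in combination libraries. Erythroid markers were lower in the combination than in vehicle in 9 of 11 genes (median -1.59), with sums of 874 to 1537 and 898 to 4009 TPM, and without vehicle 4 again in 9 (median -1.93). At an unadjusted p under 0.05 by edgeR, 3 of the 11 were lower, beside 5.53% of all genes, and 0 higher. Without vehicle 4, 6 were lower at that p, beside 5.12% of all genes, and 1 higher. Beside the counts of lower genes in each list here, 51.6% of all genes were lower in the combination than in vehicle. Without vehicle 4 this share was 50.5%. Neutrophil markers were lower in 7 of 17 with or without vehicle 4 (medians 0.43 and 0.39), with sums of 20894 to 116417 and 21241 to 104125 TPM. Plasmacytoid dendritic cell markers summed to 1364 TPM in vehicle 4, 338 in palbociclib 1 and 182 to 271 in the others, with 6 of 10 tested genes lower in the combination than in vehicle, or 7 of 10 without vehicle 4. Within that list Ly6d reached 754 CPM in vehicle libraries, and Irf8 stood at 158 CPM in vehicle 4. Siglech, Cox6a2, Ccr9 and Klk1 of the list were at 0.441, 0.551, 0.22 and 0.11 CPM in vehicle 4. Stromal and endothelial markers summed to 21.4 to 161 TPM in vehicle and 33.2 to 199 in combination libraries. HSC identity genes summed to 1942 to 2609 TPM in combination libraries, above the 789 to 1876 TPM of all 12 others. As a share of counts the groups overlapped, at 0.236% to 0.38% in combination, 0.177% to 0.313% in vehicle and 0.229% to 0.336% in rapamycin libraries. Gene by gene, 9 of 16 HSC identity genes were lower and 7 higher in the combination than in vehicle, with a median of -0.04 (10, 6 and -0.24 without vehicle 4). In these lists 0 genes were called against vehicle, with or without vehicle 4. The part of these cells in the member values was not tested.

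Total counts per library ran from 10133860 to 15328830, with 16570 to 20418 genes detected. Vehicle 3, rapamycin 3 and vehicle 4 had the lowest median correlation with the other libraries (0.866, 0.871 and 0.88), and the others were at or above 0.887. Slamf1, which encodes the sort marker CD150, was at 14.1 to 60.4 CPM and Kit, which encodes CD117, at 127 to 587 CPM in the 16 libraries. In vehicle 4 they were at 32.8 and 181 CPM, inside the range of the others. Ly6a, which encodes Sca-1, ran more widely, from 90.3 to 1006 CPM in vehicle libraries and from 139 to 793 CPM in the other groups. Its level in vehicle 4 and the levels of Cd48 are not reported here.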

How the data were processed

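RNA of sorted HSCs was measured in 16 libraries prepared from total RNA with a low-input kit, per the labels' protocols. The submitters' processing notes name STAR 2.5.3a, RSEM 1.3.0, SAMtools 1.3 and build mm10 without their roles. The authors deposited expected counts per gene, already whole numbers, and log2(TPM + 1) values, from which TPM was recovered. Symbols and coordinates came from GENCODE M21 on GRCm38, the same build as mm10, and named 50376 of 50686 IDs. The 310 others stayed in library sizes.

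Groups came from the sample titles. The counts entered edgeR 4.0.16 (R 4.3.3), with limma 3.58.1 and DESeq2 1.42.0 as alternatives. filterByExpr (minimum count 10, minimum total 15) kept 15308 genes, which hold 99.5% to 99.9% of all counts, and TMM factors lay between 0.889 and 1.14. The model had 1 mean for each group and used the 16 libraries together (12 residual degrees of freedom), and p-values were adjusted within each of 7 contrasts at 0.05. Log2 CPM used a prior count of 2. Within groups, 24 library pairs correlated at 0.843 to 0.958 and no pair agreed within sampling noise (chi-square per degree of freedom at least 23.6). The fit was tested on simulated counts. Estimated counts share reads between paralogs, and low counts limit the precision of Pax5, Rag1, Igll1, Vpreb1 and Vpreb3.

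The members, lists, tests and alternatives were chosen with earlier results of these data known. All members are named. Of each other list, the rule names up to 4 genes of highest mean CPM and any called. It adds the 8 genes most like the members' mean profile, with and without vehicle 4, and sort markers, of which Cd48 is left out. Outside the rule, 4 plasmacytoid dendritic cell markers low in vehicle 4 are named beside the sum of their list. For 1 other gene among the most similar profiles, the values are not reported here.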

Additional observations from a re-analysis of the deposited data

Results flagged for a closer look

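Each result here is a library that stood far from the other 3 of its group, by a gap above a set share of the group's range. Normally distributed values would pass that share in about 1 of 20 groups, but CPM need not follow that rate. A library above 0 whose other 3 are at 0 always passes. Vehicle 4 stood high for Cd79a (2172 CPM), Cd79b (467 CPM), Ms4a1 (343 CPM), Ebf1 (72.7 CPM), Pax5 (20.8 CPM) and Vpreb3 (76.0 CPM). Palbociclib 1 stood high for Cd79a (202 CPM), Cd79b (102 CPM), Ms4a1 (29.0 CPM), Ebf1 (7.21 CPM), Pax5 (4.27 CPM), Vpreb3 (22.1 CPM) and Igll1 (7.75 CPM). For Pax5, rapamycin 4 (0.237 CPM) and combination 3 (0.206 CPM) were the only libraries of their groups above 0, on 3 and 2 counts. For Rag1, vehicle 2 (0.0866 CPM) and rapamycin 4 (0.395 CPM) were alone above 0 in their groups, on 1 and 5 counts. The 2 libraries account for 13 of the 17 such values, so the genes do not give independent cases.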

How the results depend on the processing

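The log2 fold changes of the 7 tested members in 7 comparisons gave 1357 values under the alternatives, of which 1283 kept their direction and their side of the threshold, 18 by DESeq2 kept their direction but had no adjusted p, 52 turned and 4 passed it. DESeq2 gave those 4 calls, for Vpreb3 in 3 comparisons and Ebf1 in 1, that is 2 members for combination against vehicle, 1 for combination against palbociclib and 1 for rapamycin averaged over palbociclib. Of the 49 member results, 26 turned under no alternative, and 17 turned when a single library was left out. The cause was not tested. Low counts limit Vpreb1, Vpreb3 and Igll1.

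Leaving out each library in turn, for palbociclib against vehicle Cd79a ran from -5.48 to 0.49, Cd79b from -1.90 to 0.38, Ms4a1 from -5.47 to 0.04, Vpreb1 from -0.06 to 1.78, Vpreb3 from -3.53 to 0.17 and Igll1 from -1.74 to 0.26. For rapamycin against vehicle Ms4a1 ran from -3.80 to 0.02, Ebf1 from -3.36 to 0.24, Vpreb1 from -0.04 to 1.02 and Igll1 from -1.15 to 0.17. For combination against palbociclib Cd79a ran from -2.39 to 0.22 and Ms4a1 from -2.83 to 0.65. For the interaction Cd79a ran from -1.82 to 4.16, Cd79b from -0.87 to 1.42, Ms4a1 from -1.45 to 4.05, Ebf1 from -1.94 to 2.47 and Vpreb3 from -3.38 to 0.31. The genes called ranged from 0 to 2 for rapamycin against vehicle, from 0 to 16 for combination against rapamycin and from 0 to 5 for the interaction.

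Without vehicle 4, a setting added for the gene lists after seeing the data, the median over the members turned to 0.17 for palbociclib against vehicle. Medians of other lists also turned there, to 0.16 for early lymphoid, 0.79 for mature B cell, 0.76 for T and NK cell and 0.13 for plasmacytoid dendritic cell genes, and against vehicle after rapamycin to 0.34 for receptor signalling, 0.14 for mature B cell and 0.21 for T and NK cell genes. For the combination the mature B cell median turned to 0.26.

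Without the 3 libraries of lowest correlation, values for palbociclib against vehicle were 1.01 for Cd79a, 0.46 for Cd79b, 1.52 for Ms4a1, 0.56 for Ebf1 and 0.68 for Vpreb3. For rapamycin against vehicle they were 0.41 for Cd79a, 1.68 for Ms4a1, 1.05 for Ebf1 and -0.68 for Vpreb1. Ms4a1 was at 0.10 for combination against vehicle and 0.13 for averaged rapamycin. For the interaction Cd79a was at -2.41, Cd79b at -0.84, Ms4a1 at -3.11 and Ebf1 at -2.76. Without vehicle 4 and palbociclib 1, Vpreb1 was at -0.36 for palbociclib and Ms4a1 at 0.02 and Ebf1 at 0.24 for rapamycin, each against vehicle. Cd79a was at 0.22 and Ms4a1 at 0.66 for combination against palbociclib, Cd79a at 0.01, Ms4a1 at 0.34 and Ebf1 at 0.10 for averaged rapamycin, and Cd79b at -0.40 and Ebf1 at -0.27 for the interaction. Limma-voom gave -1.12 for Ms4a1 and -0.06 for Ebf1 in the interaction. Limma on log2(TPM + 1), with or without its filter, gave Igll1 0.18 for palbociclib and 0.02 for rapamycin. With a pseudocount of 0.1 these were 0.36 and 0.19, and Ms4a1 was at -0.10 in the interaction.

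Genes called by DESeq2 were 112 for palbociclib, 86 for rapamycin and 184 for the combination against vehicle, 21 and 168 for the combination against palbociclib and rapamycin, 42 for averaged rapamycin and 39 for the interaction, against 0, 1, 0, 0, 5, 0 and 0 by edgeR. Without a filter on counts, 16 were called for combination against rapamycin, 23 for averaged rapamycin and 4 for the interaction. Limma on log2(TPM + 1) called 1 for combination against palbociclib and 13 against rapamycin, 12 with a pseudocount of 0.1, and without its filter 0 for rapamycin against vehicle, 1, 0 and, for averaged rapamycin, 2. Robust dispersion called 3 for the interaction, and fits of only the groups compared 0 for rapamycin against vehicle and 56 for combination against rapamycin. Without the 3 libraries, 1 was called for palbociclib and 1 for the combination against vehicle and 3 for the interaction, and without vehicle 4 and palbociclib 1, 1 for palbociclib and 2 for the interaction.

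The replicate numbers share no stated source. Of 24 pairs with the same number, 7 had residual correlations above 0.1 (range -0.21 to 0.348), beside a range of -0.388 to 0.308 in the 72 other pairs. Of the 16 libraries, 8 correlated best with their own number, and how many would do so for unrelated numbers was not tested. These values do not settle whether a number marks a shared source. As none is stated, the main fit did not treat the libraries as paired. With the replicate number as a block, 1 gene was called for palbociclib against vehicle, 11 for combination against rapamycin and 3 for averaged rapamycin, 0 of them members, and Ebf1 turned to -0.48 in the interaction.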
